A study of Mus musculus with 3 samples.

Results

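Brown adipocyte nuclei carrying much Acsl5 or much Pmepa1 RNA were examined in the 2 older libraries of mouse interscapular brown adipose tissue (iBAT). Barcodes with 3000 to 6000 UMIs (unique molecular identifiers, which count RNA molecules) and fewer than 3 UMIs summed over Flt1, Ptprb, Pdgfra, Dcn, Mrc1, F13a1, Abcc9 and Trpc6, genes of other cell types, were called eligible. State A was every eligible barcode with at least 3 Acsl5 UMIs and at most 1 Pmepa1 UMI, and state B every eligible barcode with at least 3 Pmepa1 UMIs and at most 1 Acsl5 UMI. State A held 604 nuclei and state B 2057, together 2661 of 6549 eligible nuclei, of 20000 barcodes in the 12- and 24-month libraries and of 30000 in the series. Since measured UMI values chose the members, the levels of Acsl5 and Pmepa1 are not a finding, and every other gene of the same nuclei is described here without a test.

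Single-nuclei RNA sequencing was done on iBAT of wild type male mice aged 2, 12 and 24 months, with 1 library per age, and the nuclei were sorted before capture. No treatment is named. The methods name 4 mice as the source of the tissue, but not how these were divided among the libraries, so nuclei of different animals within a library cannot be told apart. With 1 library per age there is no replicate: the 95% intervals given below are exact intervals for counting error only, and the libraries were compared with no test. The libraries held 28977002 to 45819738 UMIs, and 20 to 28 barcode sequences were shared by each pair of libraries.

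Brown adipocytes burn fatty acids and glucose in mitochondria uncoupled by UCP1, and they also build new fatty acids from glucose carbon, a pathway called de novo lipogenesis. Long-chain acyl-CoA synthetases such as ACSL5 attach coenzyme A to a fatty acid so that it can enter lipids or be oxidised. PMEPA1 is a membrane protein that is induced by TGF-beta and holds back Smad signalling, nocturnin (Noct) is a rhythmically expressed NADPH phosphatase once classed as an mRNA deadenylase, and DIO2 turns thyroxine into the active thyroid hormone inside the brown adipocyte.

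In the 12-month library 445 nuclei were in state A, 11.2% of 3980 eligible nuclei (exact binomial interval 10.2 to 12.2%), and 1042 were in state B, or 26.2% (24.8 to 27.6%). In the 24-month library 159 of 2569 eligible nuclei were in state A, or 6.19% (5.29 to 7.19%), and 1015 in state B, or 39.5% (37.6 to 41.4%). The share of eligible nuclei with at least 3 Acsl5 UMIs was nearly equal in the libraries, 15.7% at 12 months and 16.0% at 24 months, while at least 3 Pmepa1 UMIs were found in 30.6% and 50.9%. In the 2-month library, which the rule did not use, the same cuts gave 83 nuclei in state A, 3.08% of 2692, and 77 in state B, or 2.86%.

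How often both defining genes were high in one nucleus is described here with no weight, since the rule used them. At 12 months, at least 3 Acsl5 UMIs were found in 21.2% of nuclei with at most 1 Pmepa1 UMI (19.5 to 23.0%) and in 8.12% of nuclei with at least 3 (6.65 to 9.80%). At 24 months these shares were 19.0% (16.4 to 21.8%) and 13.4% (11.6 to 15.3%). At 2 months the order was the other way, with 3.46% (2.76 to 4.27%) and 6.45% (2.40 to 13.5%), and these intervals overlapped. Nuclei with at least 3 UMIs of both genes numbered 99 at 12 months and 175 at 24 months, or 15.9% and 42.7% of all nuclei with at least 3 Acsl5 UMIs, so that at 24 months they outnumbered the 159 of state A. Their median depth, 4919 and 4787 UMIs, was above that of either state.

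The cuts fell within a gradual distribution. Of the state A nuclei, 35.7% at 12 months and 42.1% at 24 months stood at the lowest allowed value of 3 Acsl5 UMIs, with a median of 4 and a highest value of 17 and 15. Of the state B nuclei, 35.6% and 24.5% had exactly 3 Pmepa1 UMIs, with medians of 4 and 5 and highest values of 17 and 22. Just outside the cuts, 375 and 242 eligible nuclei had 2 Acsl5 UMIs and 660 and 422 had 2 Pmepa1 UMIs.

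Depth was close in the states: the median nucleus held 4356 UMIs in A and 4332 in B at 12 months and 4295 and 4305 at 24 months, with 2004 and 2023 and then 1973 and 1981 genes. Mitochondrial transcripts made up 0.157% of UMIs in A and 0.174% in B at 12 months, and 0.0102% and 0.0160% at 24 months. The adipocyte label was checked with 12 markers, whose summed level was 20606 CPM (counts per 1000000 UMIs of the state) in A and 13591 in B at 12 months and 19826 and 15051 at 24 months, against 6109 and 4446 in barcodes of the same depth with at least 10 UMIs of the excluding genes. Acaca, itself a lipogenic gene, was 1 of these markers and the single one that was at least 2-fold apart, and it differed by more CPM than the sums did. Of the 12 markers, 1 was higher in A in both libraries and 8 were higher in B, beside 22% and 31.4% of all measured genes. Their median log2 ratios were -0.18 and -0.16. Pparg, the master regulator of fat cells, was at 5157 and 5124 CPM at 12 months and 4116 and 4478 at 24 months, so A and B differed little in it.

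Markers of other cell types were low in both states, partly because the rule excluded 8 of them. The 10 fibroblast and progenitor markers summed to 11.2 CPM in A and 33.8 in B at 12 months and to 14.3 and 21.5 at 24 months, against 1926 and 2730 in the barcodes rich in excluding genes. The 10 macrophage markers summed to 21.9 and 26.4 and then 18.6 and 21.9 CPM, and the 10 pericyte and smooth muscle markers to 68.7 and 101 and then 93.1 and 116. The endothelial sum, 346 and 265 and then 253 and 257 CPM, was mostly Mecom, which stood at 324 and 244 and then 228 and 243. Lymphoid and skeletal muscle markers stayed under 10 CPM in sum in either state of both libraries, white adipocyte markers were at 30.5 and 42.3 and then 38.7 and 78.4 CPM, and Schwann cell and neuron markers at 30.5 and 46.6 and then 47.3 and 60.5. The red blood cell sum was 17.3 and 21.1 and then 5.73 and 10.8 CPM. The part of these small differences in the results was not tested. Doublets were not removed.

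State A was marked by RNA of the fatty acid synthesis pathway. Acaca, which encodes acetyl-CoA carboxylase 1, the committed step of the pathway, was at 9161 CPM in A and 1747 in B at 12 months and at 9611 and 3875 at 24 months, 5.24 times (5.11 to 5.38) and 2.48 times (2.41 to 2.55) as high. Fasn, the fatty acid synthase, was at 1150 and 199 CPM and then 1872 and 909. Acly, ATP citrate lyase, which supplies the acetyl-CoA, was at 653 and 142 CPM and then 2506 and 861. State B was marked by a group of low-level genes for receptors, growth factors and enzymes such as Cntfr, Igf1 and Nnmt. Noct, a marker given beforehand, was also higher in B, at 473 CPM against 101 in A at 12 months. At 24 months it was at 546 against 325, under 2-fold. For Acaca, Fasn and Acly the difference was wider at 12 months than at 24 months and smaller still in the 2-month nuclei chosen by the same cuts. Other lipogenic genes went the other way between the older libraries. Me1 was 2.83 times as high in A at 12 months and 3.64 times at 24 months, and Acss2 2.39 and 2.91 times. The difference between ages was not tested.

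**Figure D1:**
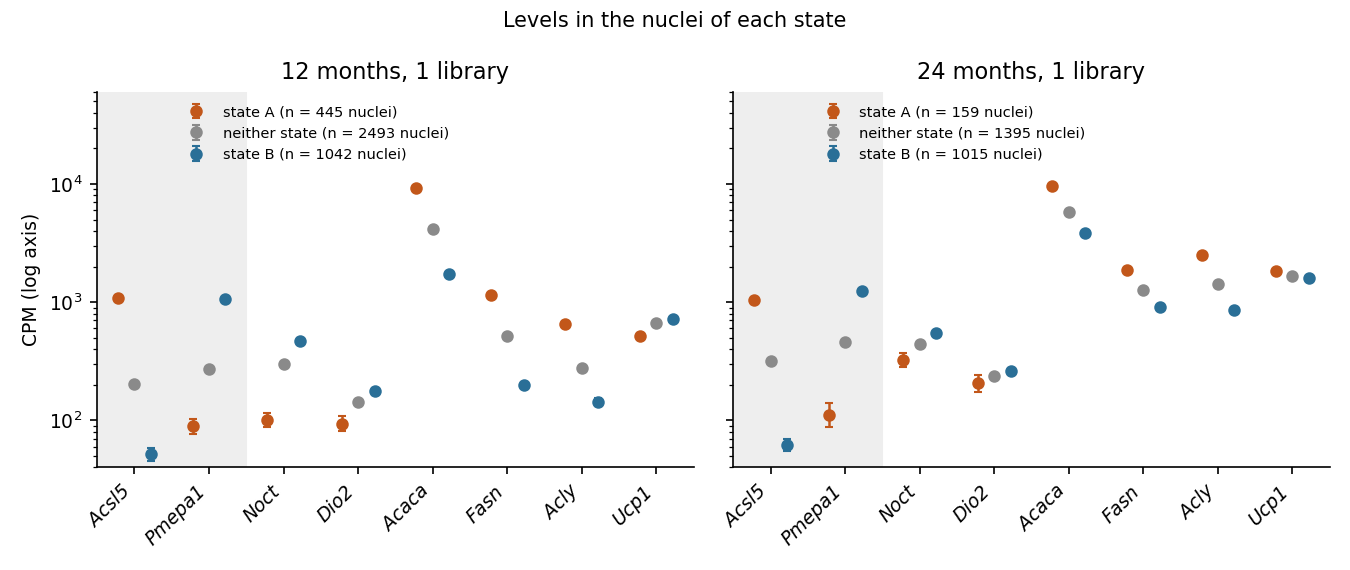
CPM (log axis) of 8 genes in state A, state B and the remaining eligible nuclei of the 12-month (left) and 24-month (right) library, with bars for the exact 95% Poisson interval of counting error, which is often smaller than the point. The grey band marks the genes that chose the states. Acaca, Fasn and Acly lie highest in state A, the remaining nuclei lie between A and B, and Ucp1 lies close together in all 3 sets.

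A gene was compared when it had at least 20 CPM and 30 UMIs in A or B in each library, which 5868 genes had. Of these, 28 were at least 2-fold higher in A in both libraries (0.477% of the genes compared) and 17 were at least 2-fold higher in B in both (0.29%), the 2 genes of the rule included. The 28 also hold Zdhhc6, which overlaps Acsl5. In single libraries, 94 genes (1.6%) were higher in A and 110 (1.87%) in B at 12 months, and 50 (0.852%) and 97 (1.65%) at 24 months. The 28 genes were 29.8% of the 12-month list and 56.0% of the 24-month list, while the 17 were 15.5% and 17.5% of theirs. Across all 5868 genes, which are not independent replicates, 55.0% had the same direction in both libraries, with a Pearson correlation of the log2 ratios of 0.28, and the median log2 ratio was -0.02 at 12 months and -0.05 at 24 months.

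**Figure D2:**
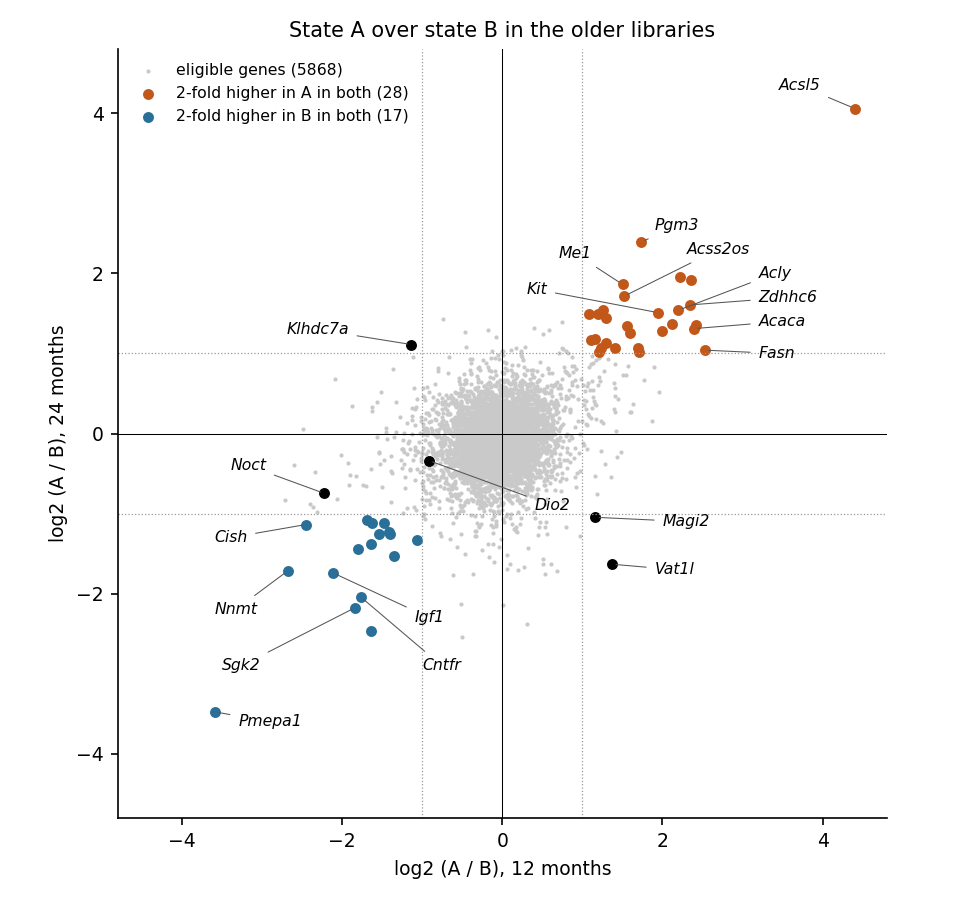
Log2 ratio of CPM in state A over state B for 5868 genes, at 12 months (x axis) and 24 months (y axis), with dotted lines at 2-fold. The 28 genes at least 2-fold higher in A (orange) lie at the upper right and the 17 at least 2-fold higher in B (blue) at the lower left, most genes lie near 0, and Noct, Dio2, Klhdc7a, Magi2 and Vat1l (black) are outside both sets.

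Among the genes 2-fold higher in A, 7 belonged to the de novo lipogenesis list. Besides Acaca, Fasn and Acly these were Me1, malic enzyme, which makes NADPH for the synthesis (596 and 210 CPM at 12 months, 1830 and 503 at 24 months), and Slc25a1, the mitochondrial citrate carrier (36.6 and 12.4, then 85.9 and 33.9). Acss2, which makes acetyl-CoA from acetate, was at 856 and 358 CPM and then 1936 and 666. Scd1, the desaturase that makes monounsaturated fatty acids, was at 368 and 150 and then 576 and 262. Of the 17 measured list members (at least 10 UMIs over A and B in each library), 16 were higher in A in both libraries and 0 were higher in B in both, where 22% and 31.4% of all 11438 measured genes were. The list's median log2 ratio was 1.26 at 12 months and 0.90 at 24 months, beside -0.05 and -0.05 over all measured genes. The exception was Srebf1, a transcription factor of lipid synthesis, at 103 and 144 CPM at 12 months and 166 and 133 at 24 months. Mlxipl, which encodes the glucose-sensing factor ChREBP, was at 2086 and 1358 CPM and then 3019 and 1786. Fads1 and Fads2, desaturases of polyunsaturated fatty acids, held too few UMIs to be measured.

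The 12 largest differences toward A, ranked by the smaller of both libraries' ratios and without Acsl5, were in order Ttc25, Dixdc1, Pgm3, Zdhhc6, Acly, Acss2os, Kit, Me1, Sorl1, Sorcs2, Slc25a1 and Acaca. Dixdc1, which encodes a Dishevelled-binding protein of Wnt signalling, was at 44.8 and 8.72 CPM at 12 months and 123 and 32.5 at 24 months, a ratio of 5.13 (3.49 to 7.66) and 3.79 (2.86 to 4.98). Kit, a receptor tyrosine kinase, was at 57.0 and 14.8 and then 185 and 64.8 CPM. Kit was also on the list of mast cell and neutrophil markers, whose other 5 members summed to under 10 CPM in either state. The sorting receptors Sorl1 (193 and 44.5, then 275 and 106 CPM) and Sorcs2 (146 and 27.5, then 218 and 85.2) were both over 4-fold higher in A at 12 months and over 2-fold at 24 months. The remaining genes 2-fold higher in A were Pdk1 and Pygl of glucose and glycogen use, Elovl3 and Sc5d of lipid synthesis, Adcy10, a soluble adenylyl cyclase, and Gss, Nudt4, Gfod1, Fam57b, Dipk1b, Garnl3 and Gm33699, with smaller-library log2 ratios of 1.01 to 1.29.

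Some of these genes share a locus, and no source used here states whether the counting was stranded. Zdhhc6, which encodes a palmitoyltransferase of the endoplasmic reticulum (chr19:55271291-55316032, minus strand, mm10), overlaps Acsl5 (chr19:55251938-55297720, plus strand) over 26.4 kb. Its levels, 269 and 53.2 CPM at 12 months and 156 and 51.3 at 24 months, therefore cannot be told apart from reads of the gene that chose state A. Acss2 overlaps Gss over 22.5 kb and the antisense transcript Acss2os over 9.89 kb, both on the opposite strand. Pgm3, an enzyme of amino sugar synthesis, lies 9.53 kb from Me1 on the same strand and was at 47.8 and 14.4 and then 150 and 28.7 CPM. Ttc25, a gene known from motile cilia, lies 17.6 kb from Acly on the opposite strand and was at 87.5 and 18.7 and then 182 and 47.0 CPM. Pgm3 lies past the end of Me1, and the part of reads running past Me1 in its values was not tested. Ttc25 lies beyond the start of Acly and not its end, and the 2 genes are transcribed away from each other. The part of the shared locus in the values of Ttc25 was not tested.

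Toward B the first 12 genes, again without Pmepa1, included Sgk2, Cntfr, Igf1, Nnmt, Col12a1, Map1b, Gpat3, Marveld1, Klhl2, Cish and Cyp4b1. Cntfr, the receptor subunit that binds ciliary neurotrophic factor, was at 36.1 CPM in A and 123 in B at 12 months and 24.3 and 100 at 24 months, 3.404 times (2.66 to 4.42) and 4.12 times (2.54 to 7.14) as high in B. Igf1, insulin-like growth factor 1, was at 8.14 and 35.3 and then 17.2 and 57.4 CPM. Nnmt, which methylates nicotinamide, was at 8.14 and 52.1 and then 14.3 and 47.0 CPM. State A held 71 UMIs or fewer of each of these in either library, which leaves their ratios with wide intervals.

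Cish, an inhibitor of cytokine signalling that STAT5 induces, was at 17.3 CPM in A and 94.8 in B at 12 months and 24.3 and 53.5 at 24 months, a ratio of 5.48 (3.86 to 8.02) and 2.199 (1.34 to 3.84). Gpat3, which starts glycerolipid synthesis, was at 30.01 and 87.0 and then 50.1 and 120 CPM. Sgk2, a kinase related to Akt, was at 10.7 and 38.1 and then 7.16 and 32.3, with 5 UMIs in A at 24 months. Col12a1, Map1b and Marveld1 reached at most 41.0 CPM in either state, while Klhl2, an adaptor of a ubiquitin ligase, was at 46.8 and 125 and then 44.4 and 104. Outside the first 12, Car3, the carbonic anhydrase abundant in fat, was at 227 and 475 and then 473 and 1190 CPM, and Trarg1, which acts in the traffic of the insulin-responsive glucose transporter, at 36.6 and 118 and then 87.4 and 185. Resf1 (100 and 310, then 74.5 and 161 CPM) and Gm17167 (31.0 and 96.8, then 25.8 and 143) were the others. Cyp4b1, a fatty acid hydroxylase and the last of the first 12, was at 17.8 and 49.5 and then 20.05 and 43.6.

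Noct did not meet the 2-fold rule in both libraries. State B had 4.67 times (4.04 to 5.43) the Noct level of state A at 12 months but 1.68 times (1.46 to 1.93) at 24 months, and 2.28 times (1.36 to 3.92) at 2 months, where the levels were 65.4 and 149 CPM. Noct was thus higher in B in all 3 libraries, and its level in state A at 12 months, 101 CPM, was close to the 87.5 CPM in barcodes rich in genes of other cell types. Dio2 was at 93.6 CPM in A and 177 in B at 12 months, 1.89 times (1.61 to 2.23) as high in B, and at 208 and 262 at 24 months, 1.26 times (1.06 to 1.51). The 2-month nuclei held 5 and 9 Dio2 UMIs, too few to set apart. By depth, B over A for Dio2 at 24 months was 1.001 in nuclei of 3000 to 4000 UMIs, 1.06 at 4000 to 5000 and 1.88 at 5000 to 6000. Written as A over B, the intervals were 0.725 to 1.35, 0.698 to 1.24 and 0.374 to 0.736. The difference was thus largest in the deepest nuclei, where alone the interval left out 1, but the intervals overlapped and state A held 59, 50 and 50 nuclei. At 12 months these ratios were 2.03, 2.09 and 1.64, and for Noct they were 4.79, 5.02 and 4.31 at 12 months and 1.64, 1.49 and 1.92 at 24 months.

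Promoter sequences are shown for the defining gene of state A, a lipogenic gene of the first 12, a gene of state B and Dio2, as RefSeq gives them for GRCm38.p6, from 250 bases before to 50 after the gene start and written in the direction of the gene. Capitals mark matches, on either strand, to 8 motifs: CACGTG (the E-box), TCACNCCAC (sterol regulatory element), CCAAT (bound by NF-Y), GGGCGG (GC box), TGACGTCA (cyclic AMP response element), TGACTCA (AP-1), AGGTCA (nuclear receptor half-site) and TTCNNNGAA (STAT). The motifs were chosen after the gene values had been seen. Acsl5 is at chr19:55253119-55253418 (plus strand), Acly at chr11:100527951-100528250 (minus), Cish at chr9:107296409-107296708 (plus) and Dio2 at chr12:90738989-90739288 (minus). The gene starts here are those of RefSeq. GENCODE, used for the gene positions above, has other starts for Acsl5 (55251938), Cish (107296026) and Dio2 (90738438), so these stretches are not the sequence around those starts.
Acsl5: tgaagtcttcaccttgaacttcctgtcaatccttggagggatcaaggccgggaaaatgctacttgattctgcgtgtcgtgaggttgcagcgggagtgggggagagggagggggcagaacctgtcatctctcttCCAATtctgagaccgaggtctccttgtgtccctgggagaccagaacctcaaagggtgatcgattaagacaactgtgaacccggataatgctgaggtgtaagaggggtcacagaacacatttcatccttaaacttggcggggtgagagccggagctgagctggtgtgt
Acly: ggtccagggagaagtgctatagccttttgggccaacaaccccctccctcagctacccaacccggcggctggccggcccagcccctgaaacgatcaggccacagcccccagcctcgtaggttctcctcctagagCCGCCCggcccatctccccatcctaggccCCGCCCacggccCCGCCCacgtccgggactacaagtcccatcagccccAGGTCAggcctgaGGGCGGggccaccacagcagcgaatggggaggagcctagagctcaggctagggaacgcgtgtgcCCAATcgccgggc
Cish: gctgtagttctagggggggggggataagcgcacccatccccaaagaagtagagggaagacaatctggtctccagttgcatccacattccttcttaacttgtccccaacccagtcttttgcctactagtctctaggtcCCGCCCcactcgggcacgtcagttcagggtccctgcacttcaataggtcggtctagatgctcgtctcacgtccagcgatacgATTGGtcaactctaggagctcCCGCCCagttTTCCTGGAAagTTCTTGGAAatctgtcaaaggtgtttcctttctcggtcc
Dio2: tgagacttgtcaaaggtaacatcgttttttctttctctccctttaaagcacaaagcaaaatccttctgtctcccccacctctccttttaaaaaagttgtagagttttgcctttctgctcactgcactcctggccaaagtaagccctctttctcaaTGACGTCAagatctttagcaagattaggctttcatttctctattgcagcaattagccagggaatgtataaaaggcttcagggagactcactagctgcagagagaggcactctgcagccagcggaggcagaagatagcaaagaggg
Cish held STAT matches at positions 251 and 262 from the first base shown, Dio2 a cyclic AMP response element at 156, Acsl5 a CCAAT at 134, and Acly 4 GC boxes, a CCAAT and a nuclear receptor half-site. Over 32851 promoters of this length, 8.30% held the STAT motif, 1.79% the cyclic AMP response element, 37.4% CCAAT, 35.7% a GC box and 16.3% the half-site. Promoters were found for 10 of the 12 leading genes of A and 8 of the 12 of B: CCAAT was in 4 and 2 of them, a GC box in 6 and 6, the STAT motif in 1 and 2, the E-box (7.15% of all promoters) in 2 and 0 and the sterol regulatory element (1.24%) in 0 and 0. AP-1 (5.20% of all) was in 1 and 0. A match of letters is a description and not a binding site.

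Acaca was the most abundant of the genes that set the states apart, so its spread over single nuclei could be read. At 12 months the median state A nucleus held 39 Acaca UMIs (quartiles 25 and 52), the median state B nucleus 5 (3 and 8) and the median remaining nucleus 9 (4 and 28). At 24 months the medians were 41 (31 and 53.5), 14 (8 and 23) and 21 (10 and 35). At least 20 Acaca UMIs were found in 85.4% of A and 7.39% of B nuclei at 12 months, in 90.6% and 33.3% at 24 months, and in 80.7% and 49.4% at 2 months. The A and B ranges overlapped in every library, with the medians of A closer to each other in the older libraries than those of B.

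**Figure D3:**
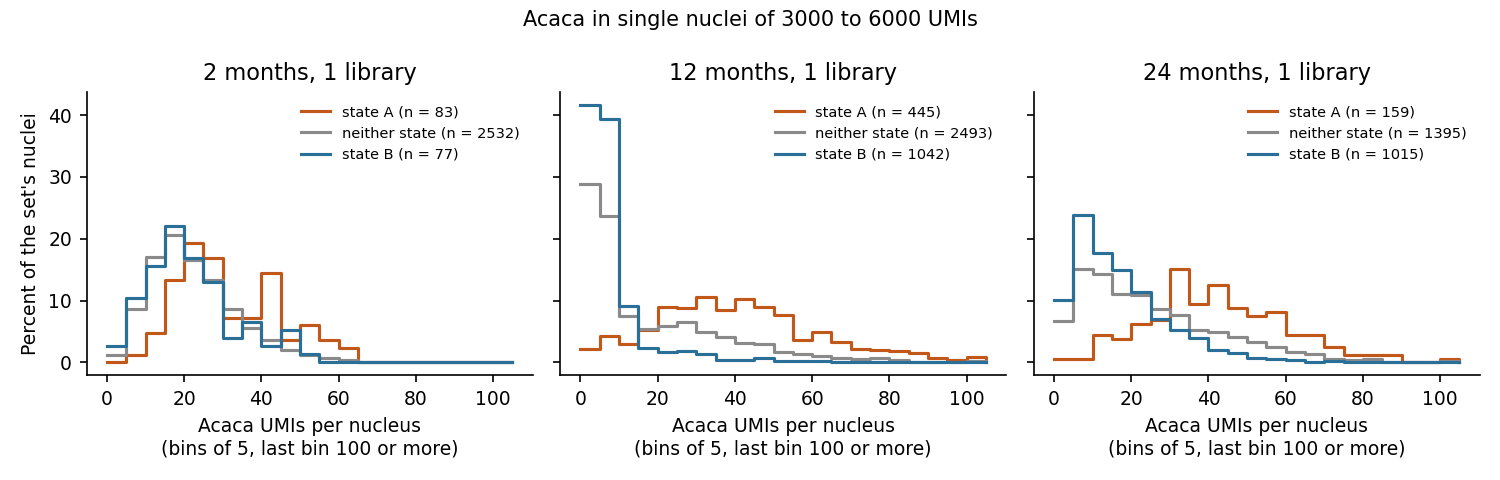
Percent of nuclei (y axis) by Acaca UMIs per nucleus in bins of 5 (x axis), for state A, state B and the remaining eligible nuclei of each library. At 12 months most state B nuclei lie under 10 UMIs and most state A nuclei above 20, at 24 months the B nuclei spread further up, and at 2 months the 3 sets largely overlap.

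When all eligible nuclei of a library were ordered by the Acaca share of their UMIs and cut in 5 equal groups, state A took 0.503%, 2.01%, 1.63%, 16.8% and 34.9% of the nuclei from the lowest to the highest group at 12 months. State B took 39.6%, 39.2%, 37.3%, 11.4% and 3.39%. At 24 months state A took 0.195%, 1.17%, 1.95%, 7.59% and 20.1%, and state B 53.3%, 50%, 47.9%, 31.3% and 15.0%. Noct ran from 447, 467 and 476 CPM in the lower 3 groups to 149 and 73.7 in the upper 2 at 12 months, and from 484, 529 and 568 to 440 and 376 at 24 months. The shares were thus close to level over the lower 3 groups and stepped between the third and the fourth at 12 months, and the step was smaller at 24 months.

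The relation to the defining genes was graded. At 12 months Acaca stood at 2304, 4109, 6077, 7213, 8871 and 9996 CPM in nuclei with 0, 1, 2, 3, 4 and 5 or more Acsl5 UMIs, and at 24 months it went from 3892 at 0 to 9220 at 5 or more. Noct stood at 207, 274, 346, 371, 430 and 522 CPM with 0 to 5 or more Pmepa1 UMIs at 12 months, and went from 382 to 573 at 24 months and from 67.0 to 215 at 2 months. By Acsl5 UMIs, Noct went down from 393 to 68.4 CPM at 12 months, but at 24 months it was between 350 and 492 CPM with no steady order. Nuclei with at least 3 UMIs of both genes were at 6725 CPM of Acaca and 231 of Noct at 12 months, between the states, and at 7424 and 504 at 24 months.

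**Figure D4:**
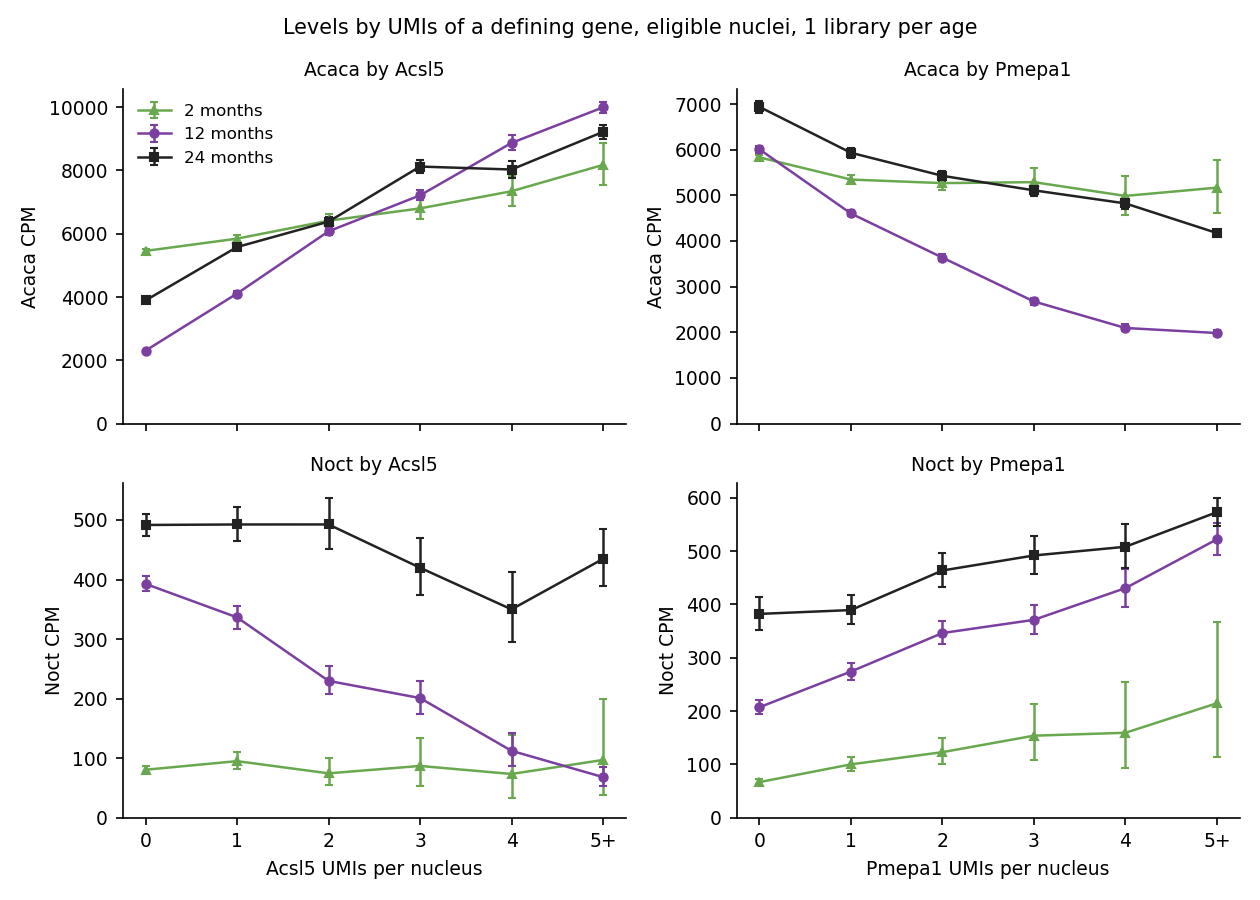
CPM of Acaca (top) and Noct (bottom) in eligible nuclei grouped by their Acsl5 (left) or Pmepa1 (right) UMIs, 1 line per library, with exact 95% Poisson intervals of counting error. Acaca is higher with each step of Acsl5 at 12 months and Noct higher with each step of Pmepa1, and the 2-month lines are the flattest except for Noct by Pmepa1.

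Since Noct also varied with Acaca, A and B were also compared within broad strata of Acaca UMIs, a comparison added after the values had been seen. The strata did not make Acaca equal in A and B. Of the nuclei with at least 20 Acaca UMIs, the lowest bin of 5 UMIs held 40 of 380 in A and 18 of 77 in B at 12 months. At 24 months it held 10 of 144 and 115 of 338. Among 12-month nuclei with fewer than 10 Acaca UMIs, 29 in A and 845 in B, Noct was at 463 and 501 CPM (B over A 1.08, 0.834 to 1.43), Cntfr at 128 and 134 and Cish at 63.8 and 94.8, and every one of these intervals included 1. Among 12-month nuclei with at least 20 Acaca UMIs, 380 in A and 77 in B, Noct was at 65.9 and 190 CPM (2.89, 2.10 to 3.95). Among the 24-month nuclei with at least 20, 144 in A and 338 in B, Noct was at 318 and 532 CPM (1.67, 1.43 to 1.96), and Cntfr at 20.4 and 60.3 (2.96, 1.65 to 5.76), while at 12 months Cntfr was at 25.3 and 43.2 among nuclei with at least 20 (1.71, 0.882 to 3.14). Acly was 4.60 times as high in A over all 12-month nuclei. It was 1.26 times (0.699 to 2.11) as high among those low in Acaca, on 15 UMIs in A, so this interval included 1. Among those with at least 20 it was 1.26 times (1.08 to 1.47) as high at 12 months and 1.65 times (1.54 to 1.75) at 24 months. Fasn, 5.77 times as high over all, was 1.11 times (0.631 to 1.83) and 1.27 times (1.13 to 1.43) as high at 12 months and 1.3015 times at 24 months. The difference in Noct at 12 months was not seen among the nuclei low in Acaca, of which state A held few. It was present, at a smaller size, among those high in Acaca. The part in these values of the Acaca difference left within the strata was not tested. Dio2 was closer in each of these strata than its counting error could set apart, with B over A at 1.34 (0.833 to 2.32) and 1.22 (0.835 to 1.76) at 12 months and 1.17 (0.953 to 1.43) at 24 months.

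Thermogenic genes did not lie to one side. Ucp1, the uncoupling protein, was at 517 CPM in A and 715 in B at 12 months and at 1822 and 1588 at 24 months, so its direction differed between the libraries. Of 33 thermogenesis and adrenergic genes, 9 were higher in A in both libraries and 12 in B in both, beside 22% and 31.4% of all measured genes. Their median log2 ratios were 0.03 and -0.10. Elovl3, an elongase of brown fat (46.8 and 20.5, then 84.5 and 30.04 CPM), and Adcy10 (77.8 and 36.6, then 163 and 58.1) were at least 2-fold higher in A in both, as 0.796% of measured genes were. Esrrg, a nuclear receptor of mitochondrial genes, was at 2680 and 5150 and then 2563 and 3663 CPM, and Adrb1, a beta-adrenergic receptor, at 31.0 and 64.9 and then 68.7 and 93.3. Nuclear genes of oxidative phosphorylation had medians of 0.05 and 0.11, with 10 of 31 higher in A in both libraries and 4 higher in B, and transcripts of the mitochondrial genome medians of -0.16 and -0.46, with few UMIs at 24 months. In the 2-month states the latter went the other way, with a median of 2.35, 8 of 8 measured genes higher in A, and mitochondrial shares of 0.0631% of UMIs in A and 0.0152% in B.

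Glucose genes differed less than the lipogenic ones. Of 25 measured glycolysis and glucose uptake genes, 16 were higher in A in both libraries and 4 in B, where 22% and 31.4% of all measured genes were, with median log2 ratios of 0.36 and 0.31. Pygl, the liver form of glycogen phosphorylase (721 and 221, then 778 and 385 CPM), and Pdk1, a kinase that brakes pyruvate dehydrogenase (39.2 and 14.8, then 54.4 and 25.98), were 2-fold apart. Hk2, the first enzyme of glycolysis, was at 770 and 409 and then 1817 and 1038 CPM, and Slc2a4, the insulin-responsive glucose transporter, at 97.1 and 74.5 and then 188 and 109. The muscle form of pyruvate kinase, Pkm, was at 467 and 291 and then 567 and 363.

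Of the long-chain synthetases other than Acsl5, Acsl1, the main one of fat, was at 4362 and 4007 CPM at 12 months and 4321 and 5808 at 24 months, Acsl3 at 77.8 and 64.7 and then 95.9 and 67.5, and Acsl4 at 39.2 and 30.1 and then 41.5 and 39.1. Of 21 measured genes of acyl-CoA synthesis and fatty acid uptake, 10 were higher in A in both libraries and 4 in B, beside 22% and 31.4% of all measured genes. The medians were 0.23 and 0.25, and Acss2 alone was 2-fold apart in both. Acot11, a thioesterase that undoes the reaction, was at 922 and 396 and then 1287 and 657 CPM. Cd36, the fatty acid transporter, differed in direction, at 2274 and 1693 and then 1212 and 1516.

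Fatty acid oxidation showed no common direction, with 3 of 21 genes higher in A in both libraries, 8 higher in B and medians of -0.00 and -0.09. Over all measured genes these shares were 22% and 31.4%. Cpt1a, the carnitine transferase of liver that lets fatty acids into mitochondria, was at 5.09 and 33.8 CPM at 12 months and 8.59 and 18.3 at 24 months, with 6 UMIs in A at 24 months, while Cpt1b, the form of muscle and brown fat, was at 486 and 560 and then 511 and 648. Of 22 triglyceride genes, 7 were higher in A and 12 in B in both libraries, with medians of -0.08 and -0.21. Pnpla3, a lipase-like protein that lipogenic factors induce, was at 721 and 321 and then 1209 and 641 CPM. Dgat2, which makes triglyceride, was at 264 and 1004 and then 772 and 993, and G0s2, an inhibitor of the main triglyceride lipase, at 68.7 and 257 and then 126 and 181. Gpat3 was the member 2-fold higher in B in both libraries, as 1.23% of measured genes were.

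**Figure D5:**
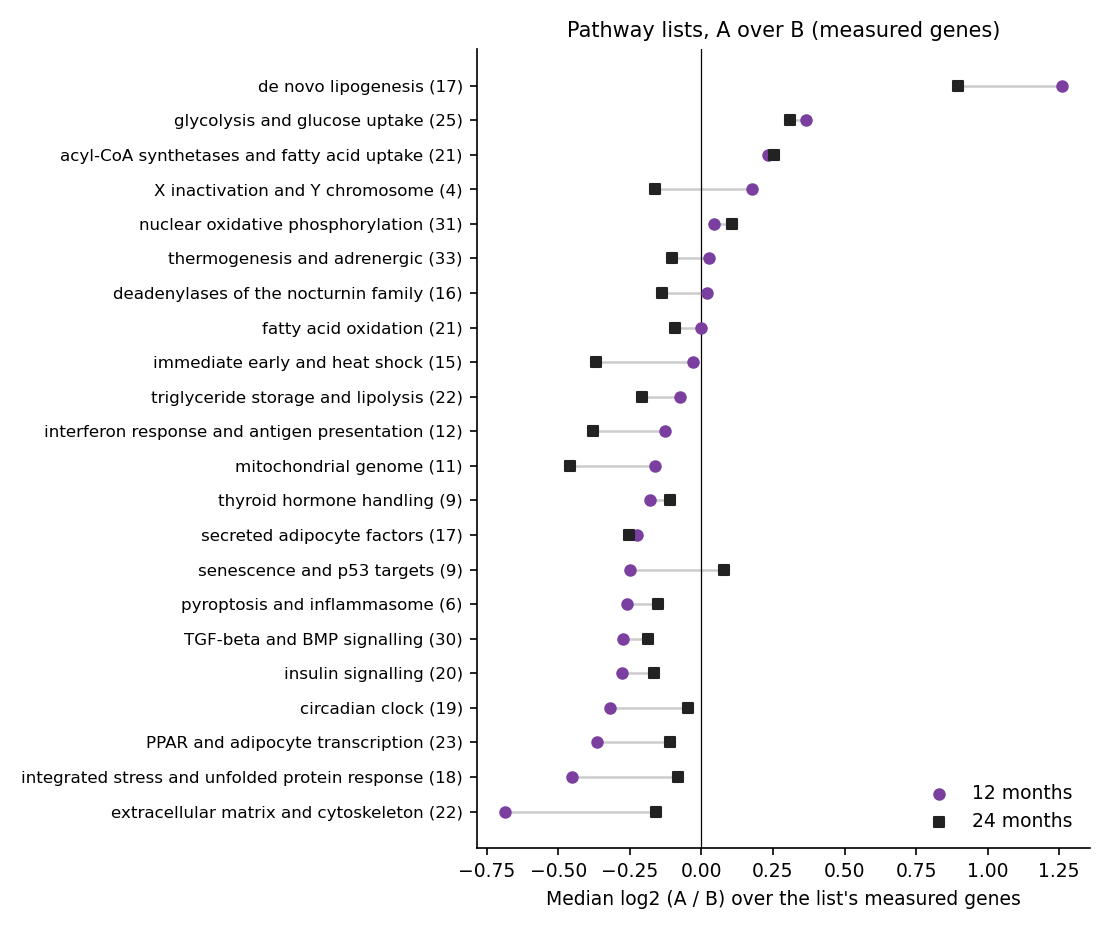
Median log2 ratio of state A over state B (x axis) over the measured genes of 22 pathway lists, at 12 months (circles) and 24 months (squares), with the number of measured genes in parentheses. De novo lipogenesis lies farthest to the right at 1.26 and 0.90, and extracellular matrix and cytoskeleton farthest to the left at 12 months at -0.69.

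The TGF-beta and BMP list leaned toward B, which was not particular to it. Of its 30 measured genes, 6 were higher in A and 15 in B in both libraries, where 22% and 31.4% of all measured genes were, with medians of -0.28 and -0.19. Among other lists, 4 and 12 of 17 secreted factors were higher in A and B, and 3 and 14 of 23 PPAR and adipocyte transcription genes. Smad6, an inhibitory Smad, was at 24.9 and 132 CPM at 12 months and 61.6 and 113 at 24 months, and Smad3, which carries the TGF-beta signal, at 51.9 and 151 and then 87.4 and 102. Smad7, the other inhibitory Smad, was at 3.05 and 7.63 and then 5.73 and 7.45 CPM. Of the receptors, Tgfbr1 was at 59.5 and 50.6 and then 58.7 and 48.8. Tgfbr2 was close at 12 months, at 100 and 91.8, and higher in A at 24 months, at 212 and 134. Acvr1b, a type I receptor, was the list's 2-fold gene, at 2.03 and 9.81 and then 4.296 and 9.49 CPM, on few UMIs. Col4a1 and Col4a2, chains of basement membrane collagen, were at 99.7 and 261 and at 113 and 292 at 12 months, and at 159 and 193 and at 130 and 183 at 24 months. Of 22 matrix and cytoskeleton genes 1 was higher in A and 10 in B in both libraries, beside the same 22% and 31.4%, and Lama2, which is also a fibroblast marker, was the 2-fold one, at 10.7 CPM or less.

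Clock genes were split by direction at 12 months. Per2 (13.2 and 66.9 CPM), Per3 (62.0 and 144), Tef (175 and 396), Hlf (30.01 and 97.9), Ciart (2.54 and 15.9) and Dbp (3.56 and 14.2) were lower in A, and Arntl, which encodes BMAL1 (86.5 and 42.5), Bhlhe40 (152 and 65.6) and Cry1 (20.3 and 9.81) were higher in A. At 24 months the same genes were closer, with Per2 at 31.5 and 44.0, Per3 at 78.8 and 115, Tef at 365 and 397, Hlf at 107 and 169, Ciart at 12.9 and 10.4, Dbp at 15.8 and 14.2, Arntl at 52.99 and 39.8, Bhlhe40 at 88.8 and 46.1 and Cry1 at 7.16 and 4.52. Of the 19 measured clock genes 3 were higher in A and 6 in B in both libraries, beside 22% and 31.4% of all measured genes. Among these clock genes 0 were 2-fold apart in both, and the medians were -0.32 and -0.05. The proteins of this list repress or activate one another in a daily cycle. No source used here states the hour at which each library's tissue was collected. Among 16 relatives and partners of Noct in mRNA deadenylation and NADP metabolism, Noct alone was over 2-fold apart at 12 months with more than 20 CPM in a state, and the list's medians were 0.02 and -0.14.

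The remaining lists held few large differences. Over all measured genes, 22% were higher in A and 31.4% in B in both libraries. Of 20 insulin signalling genes 4 were higher in A and 10 in B in both libraries (medians -0.28 and -0.17). Grb14, an adaptor that restrains the insulin receptor, was at 147 and 346 CPM and then 179 and 356, and Irs2, an insulin receptor substrate, differed in direction at 96.1 and 49.0 and then 64.4 and 157. Of 23 PPAR and adipocyte transcription genes 3 and 14 were higher in A and B (-0.36 and -0.11), and Angptl4, a PPAR target that inhibits lipoprotein lipase, was at 82.4 and 179 and then 183 and 230 CPM. Of 17 secreted factors 4 and 12 were higher in A and B (-0.22 and -0.25). Ccbe1 was 2-fold higher in B in both libraries at 0.509 and 3.71 and then 4.296 and 33.0 CPM, with 1 and 3 UMIs in A.

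Integrated stress and unfolded protein response genes had medians of -0.45 and -0.08, with 2 of 18 higher in A and 8 in B in both libraries. The shares over all measured genes, for this and the next lists, were 22% and 31.4%. Interferon and antigen presentation genes had -0.13 and -0.38 (1 and 7 of 12), immediate early and heat shock genes -0.03 and -0.37 (2 and 6 of 15), thyroid hormone handling genes -0.18 and -0.11 (1 and 6 of 9), and senescence and p53 targets -0.25 and 0.08 (2 and 3 of 9). Of the pyroptosis and inflammasome genes, which the study followed, 6 of 15 were measured, 0 were higher in A and 3 higher in B in both libraries, and Casp1, Il1b, Il18, Nlrp3 and Gsdmd had too few UMIs in these nuclei to be read. Txnip, which binds thioredoxin and answers to glucose, was at 177 and 279 and then 408 and 433 CPM. Y-linked genes were present in both states, with Uty at 424 and 398 and then 344 and 324 CPM, and Xist held at most 1 UMI in a state.

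The 2-month library, which took no part in choosing the genes, gave smaller differences, mostly in the same direction, between states that also differed in mitochondrial RNA. Of the 27 genes higher in A in the older libraries other than Acsl5, 23 had at least 10 UMIs over A and B at 2 months. Of these 23, 17 were higher in A, where 48.8% of 5606 genes were, and 2 were 2-fold higher. The 17 include Zdhhc6, which overlaps Acsl5 and so carries no weight here. The median log2 ratio of the 23 was 0.27 against 1.69 and 1.34 in the older libraries. Of the 16 genes higher in B other than Pmepa1, 8 were measured, 7 of them were higher in B and the median was -0.58. Acaca was at 7311 CPM in A and 5022 in B, 1.46 times (1.37 to 1.55) as high, Acly at 554 and 301 (1.84, 1.44 to 2.37), Fasn at 765 and 453, and Me1 at 159 and 146 (1.09, 0.729 to 1.64). The lipogenesis list had a median of 0.17, with 10 of 16 genes higher in A. The 2-month states held 351808 and 328936 UMIs in all, so low genes were poorly resolved there. Dixdc1, at 76.7 and 33.4 CPM, still had an interval above 1 (2.29, 1.10 to 5.13), while that of Cish, at 48.3 and 79.0 CPM, included 1.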

How the data were processed

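UMI counts per gene and barcode were deposited by the authors for each library, 32285 genes by 10000 barcodes, made with Cell Ranger on mm10. The headers and the submitters' processing notes name version 7.0.1, and the methods of the study name an earlier one. The authors forced 10000 barcodes per library, and whether intronic reads were counted is not stated. Members and lists were chosen with earlier results of these data known. For each state and library, the counts of its nuclei were added up and scaled to the state's total (CPM). Poisson, binomial and conditional (Clopper-Pearson) intervals are exact at 95% and cover counting error only. A state with 0 UMIs was set to 3 counts in ratios. With 1 library per age, and states cut from measured values, no test was made. Named genes were the 12 with the largest smaller-library ratio in each direction, without the defining, mitochondrial and predicted genes; the 4 markers; list members; and genes 2-fold apart in opposite directions. Of the leading genes, 1 is not reported here. Doublets were not removed. The comparison was tested on simulated data. Positions are from GENCODE on mm10, which held 99.8% of the gene identifiers. Python 3.11.15 (numpy 2.4.6, scipy 1.17.1, pandas 2.3.3, matplotlib 3.10.9), R 4.3.3 and edgeR 4.0.16 (TMM factors, as an alternative) were used. Alternatives were other UMI windows, cuts, filters, weights, thinning to 3000 UMIs and scaling.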

Additional observations from a re-analysis of the deposited data

Results flagged for a closer look

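The genes Klhdc7a, Magi2 and Vat1l were at least 2-fold apart in opposite directions in the older libraries, and whether they differ between the ages was not tested. Klhdc7a, a kelch-domain gene, had a log2 ratio of A over B of -1.14 at 12 months (20.3 CPM in A and 44.7 in B) and 1.11 at 24 months (109 and 50.4). Magi2, a scaffold protein, had 1.16 at 12 months (34.1 and 15.3 CPM) and -1.05 at 24 months (15.8 and 32.5), the latter on 11 UMIs in A. Vat1l had 1.37 at 12 months (68.7 and 26.6 CPM) and -1.63 at 24 months (28.6 and 88.8).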

How the results depend on the processing

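Nuclei of A and B numbered 725 and 1753 at 12 months and 247 and 1757 at 24 months with a window of 2000 to 8000 UMIs, and 151 and 343, then 50 and 349, with 4000 to 5000. A defining cut of 2 UMIs gave 688 and 1568 at 12 months and 258 in A at 24 months, a cut of 4 gave 286, 671 and 92, and 0 UMIs of the other gene gave 270 and 81 in A. Genes 2-fold higher in B, 17 as reported, numbered 31 with 4000 to 5000 UMIs, 9 with a cut of 2, 33 with a cut of 4, 26 after thinning, 39 with a filter of 10 CPM and 10 UMIs and 9 with 50 CPM and 100 UMIs. Folds of 1.5 and 3 gave 81 and 5 genes for A and 86 and 6 for B. Noct at 12 months (log2 A over B -2.22) was at -1.82 with a cut of 2, -3.01 with a cut of 4, -2.49 with 0 UMIs of the other gene and -2.47 after thinning, and, in strata chosen after seeing the data, at -0.12 with fewer than 10 and -1.53 with at least 20 Acaca UMIs. Dio2 was at -0.43 and -0.29 in those strata, and at -0.73 after thinning and -0.09 with 4000 to 5000 UMIs at 24 months (-0.34 as reported). At 24 months 2 state A nuclei had fewer than 10 Acaca UMIs, and that stratum was not compared. Acaca ranged from 2.07 to 2.66 at 12 months and from 1.13 to 1.55 at 24 months over 11 alternatives, in which all 24 leading genes kept their direction in both libraries. For Zdhhc6, which overlaps Acsl5, this carries no weight. Counts under 30 UMIs in A, common among the genes of B, limit their ratios. A and B were compared within each library. With 1 library per age and states cut from measured values, no paired test was made.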
